A study of Papio anubis with 28 samples.

Results

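The transcription factors TP63, GRHL3, GATA3, FOXA1, PPARG, ELF3 and KLF5, 7 regulators known from the lining of the bladder, were followed in the urinary bladder and in tissue grafted into it. They were taken by gene symbol from a table of 27533 genes. Each of the 7 had 1 entry and all 7 passed the filter on low counts. The series holds 28 RNA sequencing libraries from 14 olive baboons (Papio anubis), with 1 library of native bladder and 1 of the graft from each animal. The Entero arm had 5 animals with a graft of ileum, and its groups are called Entero native and Entero ileum. The SIS arm (5 animals) and the PRS arm (4 animals) had grafts of regenerated tissue, labelled as made with mesenchymal stromal cells (MSC) and CD34+ haematopoietic stem and progenitor cells (HSPC) from primary bone marrow. The labels give all animals, natives and grafts alike, the genotype WT. The sources used here do not give what SIS and PRS stand for, the animals' ages, the time after surgery or the place in the graft from which tissue was taken. Ungrafted ileum was not analysed here, so a trait of ileum and an effect of its transfer cannot be told apart. Every native bladder library came from an animal that also carried a graft.

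The urothelium is a layered epithelium, with basal cells on the basement membrane, intermediate cells above them and umbrella cells facing the urine. TP63 keeps basal cells in their state in stratified epithelia. GATA3, FOXA1 and PPARG drive luminal urothelial differentiation, PPARG as a nuclear receptor that binds DNA together with a retinoid X receptor and FOXA1 as a pioneer factor that opens chromatin. GRHL3 acts in barrier formation and late differentiation, and ELF3 and KLF5 act in differentiation and growth of many epithelia, the intestinal epithelium among them. Several of these factors also work outside the urothelium: GATA3 in T lymphocytes and PPARG in adipocytes.

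Total counts lay between 20975648 and 35669026 per library. The tissue labels were checked against marker genes. The brush border gene VIL1 stood at 711 ± 461 CPM (counts scaled to a common library total; mean ± SD, n = 5) in the ileum and at group means of 0.0195 to 0.487 CPM elsewhere, and the uroplakin gene UPK1A at 3.03 ± 2.74 CPM in the ileum and at 304 to 1122 CPM elsewhere. The share of epithelium in the sampled tissue varied widely. The mean log2(CPM + 1) of 10 pan-epithelial genes, called the epithelial mean from here on, was 3.15 in SIS native 4, 3.47 in PRS regenerated 2, 4.43 in Entero native 4, 4.69 in SIS native 5 and 5.26 in SIS regenerated 2, against 6.08 or more in the other 23 libraries. In those 5 libraries the mean of the smooth muscle genes was 11.3 to 12.6. In bulk tissue, fewer cells of a type and less RNA per cell cannot be told apart.

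In native bladder all 7 factors were present, and their order was compared per transcript length, as TPM, which divides counts by gene length and scales each library to the same sum. In Entero native, ELF3 had the highest mean at 216 TPM, followed by GATA3 at 110, KLF5 at 90.4, GRHL3 at 74.0, FOXA1 at 50.1, PPARG at 28.7 and TP63 at 21.5 TPM. ELF3 was above GATA3 in 4 of 5 of these libraries and PPARG above TP63 in 5 of 5, whereas GATA3 was above KLF5 in only 2 of 5, so that pair had no fixed order. GATA3 (126 TPM) and ELF3 (125 TPM) led in SIS native, and ELF3 (173 TPM), GATA3 (109 TPM) and KLF5 (108 TPM) in PRS native. Over the 14 native libraries the levels spread widely: TP63 ran from 0.576 to 78.0 CPM with a median of 50.8, and KLF5 from 34.9 to 413 CPM with a median of 243.

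**Figure D1:**
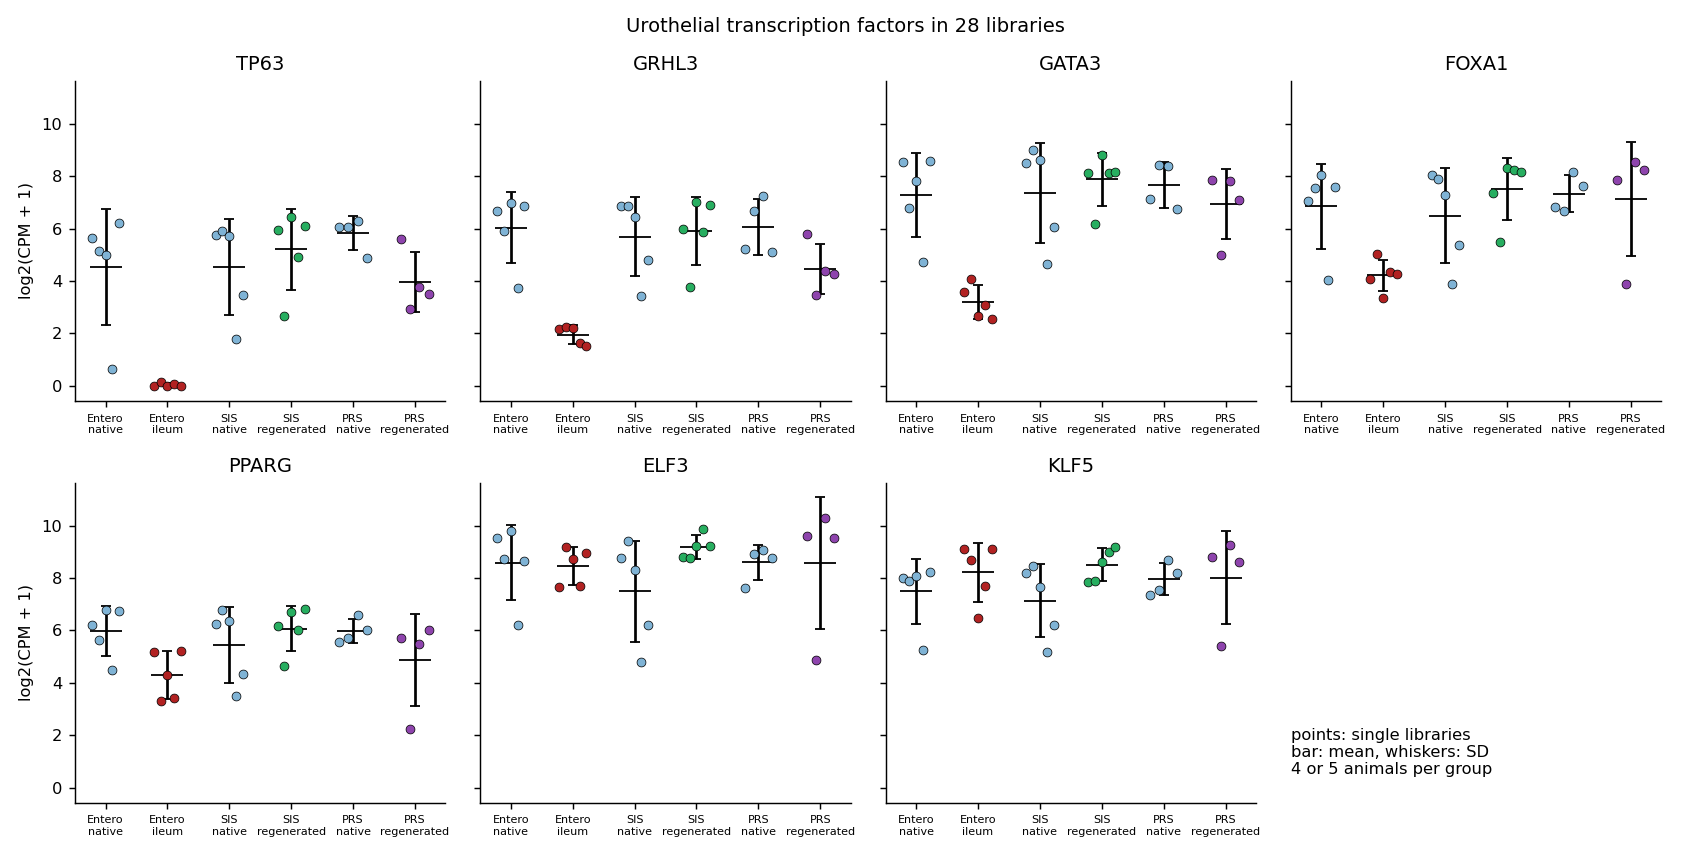
Level of each factor as log2(CPM + 1) in the 28 libraries by group; points are single libraries, the horizontal bar is the group mean and the whiskers are 1 SD (4 or 5 animals). TP63, GRHL3 and GATA3 in the ileum lie below every other library of their panel, while ELF3 in the ileum lies among the native values and 3 of 5 ileum values of KLF5 lie above the highest of all native libraries.

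The Entero arm asks which of these factors a bowel segment in the bladder wall carries. TP63, GRHL3, GATA3 and FOXA1 fell in the ileum. PPARG was lower without passing the test, and ELF3 and KLF5 stayed near the native level with wide intervals. In edgeR's quasi-likelihood test, 4 of the 7 factors fell and 0 rose, where 2582 of 17177 genes, 15%, were called (1328 higher, 1254 lower). The median log2 fold change was -3.07 over the 7 factors and -0.03 over all genes tested.

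TP63 (ENSPANG00000006656) was nearly absent from the ileum. The 5 ileum libraries held 0, 2, 0, 1 and 0 reads of it, and the native libraries of the same animals stood at 49.2, 34.3, 31.3, 0.576 and 74.2 CPM. Native library 4 was far below the others, yet above every ileum library. Summed over the groups, 3 reads stood against 5266. Relative to the total counts of the groups, without the scaling used for CPM, that is a ratio of 1745. Its 95% counting interval of 597 to 8466 covers counting error only. The log2 fold change was -10.12 (SE 1.35, adjusted p = 1.14e-05 in edgeR). The pan-epithelial genes did not move in this way: 3 of the 10 rose, 0 fell, and their median log2 fold change was 0.18.

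GRHL3 (ENSPANG00000024748) stood at 3.52, 3.76, 3.60, 2.09 and 1.90 CPM in the ileum of animals 1 to 5, and at 102, 58.6, 126, 12.4 and 117 CPM in their native bladders. The groups did not overlap, and the spread within the ileum was narrow. It changed by -4.80 in log2 units (SE 0.76, adjusted p = 7.62e-05 in edgeR).

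GATA3 (ENSPANG00000023402) stood at 11.1, 15.7, 5.35, 7.60 and 4.84 CPM in the ileum against 370, 110, 223, 25.3 and 385 CPM in native bladder, again with no overlap. It changed by -4.64 on the log2 scale (SE 0.81, adjusted p = 0.000221 in edgeR). The mean of T and natural killer cell genes, a second known source of GATA3 RNA, was 3.01 to 4.58 in the ileum and 2.44 to 4.99 in native bladder, and 0 of 9 of those genes passed the test. Its part in the GATA3 level was not tested. TP63, GRHL3 and GATA3 were the 3 factors whose ileum and native values did not overlap, where 11.4% of all genes tested did not overlap.

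FOXA1 (ENSPANG00000015153) stood at 15.7, 31.8, 9.25, 19.3 and 18.3 CPM in the ileum and at 132, 185, 267, 15.3 and 194 CPM in native bladder. Native library 4 fell within the ileum values, so the groups overlapped. The log2 fold change was -3.07 (SE 0.78, adjusted p = 0.00800 in edgeR). With the animal as a block the value was -2.82 and the call was lost (adjusted p = 0.0694 in edgeR).

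PPARG (ENSPANG00000016461) stood at 35.5, 8.97, 18.8, 9.79 and 36.2 CPM in the ileum and at 72.8, 49.1, 108, 21.7 and 106 CPM in native bladder. It was lower in the graft of each of the 5 animals, and the groups overlapped through native library 4. The log2 fold change of -1.71 did not pass (SE 0.64, adjusted p = 0.0709 in edgeR). It passed in DESeq2 (adjusted p = 0.0410), in edgeR on the 2 groups alone (adjusted p = 0.0475) and in edgeR without Entero native 4 (-1.94, adjusted p = 0.0439). It also passed in edgeR without the 5 libraries lowest in epithelium (-1.95, adjusted p = 0.000638), a setting chosen after seeing the data, in which 5 of the 7 factors and 18% of all genes were called. That library also had the highest mean of adipocyte genes of all libraries, 6.73, and 55.5 CPM of ADIPOQ, the adipocyte hormone; its part in the PPARG level was not tested.

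ELF3 (ENSPANG00000009054) and KLF5 (ENSPANG00000024153) were the most abundant of the 7 in the ileum, at 105 and 94.3 TPM, with PPARG next at 5.44 TPM. ELF3 stood at 201, 587, 428, 206 and 499 CPM in the ileum and at 739, 422, 898, 72.3 and 404 CPM in native bladder. The values overlapped, and the log2 fold change was -0.40 with a 95% interval of -1.87 to 1.07 (adjusted p = 0.772 in edgeR). KLF5 stood at 555, 415, 87.4, 209 and 547 CPM in the ileum and at 253, 233, 269, 37.3 and 303 CPM in native bladder. Its log2 fold change was 0.73 with an interval of -0.56 to 2.02 (adjusted p = 0.490 in edgeR). ELF3 over KLF5 had no fixed order in the ileum: ELF3 was the higher in 3 of 5 libraries.

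**Figure D2:**
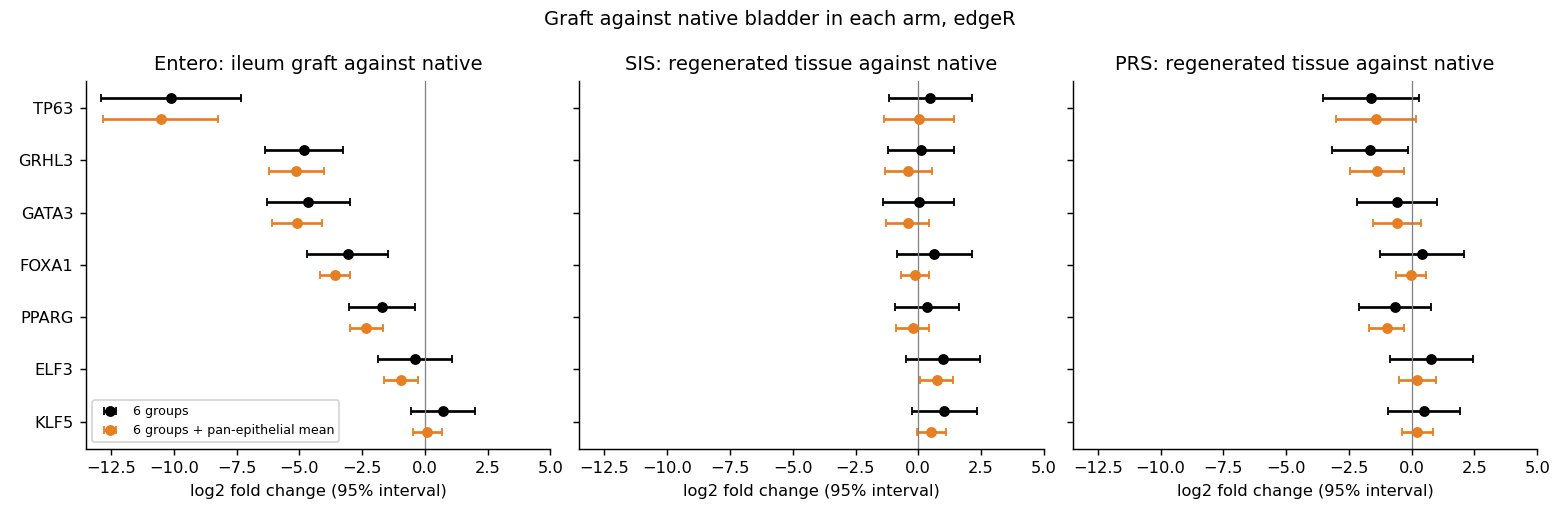
Log2 fold change of graft against native bladder for each factor in the Entero, SIS and PRS arms, with 95% intervals; black is the model of the 6 groups and orange adds the epithelial mean as a covariate. In the Entero arm the intervals of TP63, GRHL3, GATA3, FOXA1 and PPARG lie left of 0 in both models, though PPARG did not pass in the first. In the SIS arm all intervals of the first model span 0.

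The scaffold arms ask how far regenerated tissue resembled the bladder it joined in these factors. All 7 were present in the regenerated tissue of both arms, and edgeR called 0 of them. In the SIS arm 0% of genes were called (0 of 17177; 831 at an unadjusted p under 0.05, and 69 called by DESeq2, 0 of them among the 7). In the PRS arm 0% were called as well (613 at an unadjusted p under 0.05, 30 in DESeq2, 0 of the 7). With both arms averaged, 0% were called (855 at an unadjusted p under 0.05, 64 in DESeq2, 0 of the 7). The intervals below give the sizes that remain possible.

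In the SIS arm TP63 stood at 60.4, 5.33, 85.9, 29.0 and 68.4 CPM in regenerated tissue of animals 1 to 5 and at 53.3, 59.7, 52.4, 2.46 and 9.98 CPM in native bladder. The low values belonged to different animals on the 2 sides, and they were the libraries with the lowest epithelial means. The log2 fold change was 0.48 with an interval of -1.19 to 2.15. GATA3 ran from 71.3 to 452 CPM (median 278) in regenerated tissue and from 24.4 to 510 CPM (median 359) in native bladder, and its log2 fold change was 0.01 (interval -1.41 to 1.43). GRHL3 gave 0.11 (interval -1.21 to 1.42), PPARG 0.34 (interval -0.93 to 1.62) and FOXA1 0.64 (interval -0.85 to 2.14). The directions of GRHL3 and GATA3 turned when 1 of several single libraries was left out, so neither has a direction in this arm.

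ELF3 and KLF5 had the highest fold changes of the 7 in the SIS arm, both within the spread. ELF3 stood at 442, 434, 593, 943 and 599 CPM in regenerated tissue and at 440, 677, 313, 26.6 and 72.5 CPM in native bladder. The log2 fold change was 0.98 (interval -0.50 to 2.46). KLF5 ran from 231 to 581 CPM in regenerated tissue and from 34.9 to 351 CPM in native bladder, with 1.03 as its log2 fold change (interval -0.26 to 2.33). The groups overlapped for all 7 factors. SIS regenerated 2, with a low epithelial mean and 5.33 CPM of TP63, held 434 CPM of ELF3 and 234 CPM of KLF5, close to the 442 and 231 CPM of SIS regenerated 1.

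In the PRS arm the 2 factors with the largest differences were TP63 and GRHL3. TP63 stood at 47.3, 6.55, 12.8 and 10.5 CPM in regenerated tissue of animals 1 to 4 and at 66.1, 66.2, 78.0 and 28.6 CPM in their native bladders. It was lower in the graft of each of the 4 animals, but PRS regenerated 1 lay above PRS native 4 and the groups overlapped. The log2 fold change was -1.63 (interval -3.54 to 0.28, unadjusted p = 0.0913, adjusted p = 1 in edgeR).

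GRHL3 stood at 53.9, 10.2, 20.1 and 18.1 CPM in PRS regenerated tissue and at 36.3, 102, 150 and 33.4 CPM in native bladder. It was lower in the graft in 3 of 4 animals, with a log2 fold change of -1.65 (interval -3.16 to -0.14, unadjusted p = 0.0334, adjusted p = 1 in edgeR). The low values had different surroundings. PRS regenerated 2 was low in all 7 factors and had an epithelial mean of 3.47. PRS regenerated 3 and 4 had epithelial means of 7.98 and 7.81, high among all libraries, and ELF3 stood there at 1268 and 747 CPM. The mean of the mesothelial genes was 4.52 and 4.09 in those same 2 libraries and 4.14 in SIS regenerated 4, against at most 3.05 in any other library; its part in the TP63 and GRHL3 values was not tested.

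The other 5 factors, like TP63, had intervals that spanned 0 in the PRS arm. GATA3 gave a log2 fold change of -0.57 (interval -2.17 to 1.02), PPARG -0.66 (interval -2.09 to 0.77) and FOXA1 0.40 (interval -1.26 to 2.07). ELF3 gave 0.77 (interval -0.88 to 2.42) and KLF5 0.50 (interval -0.93 to 1.94). PRS regenerated 2 was the lowest library of its group for all 7 factors.

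Averaged over both scaffold arms the log2 fold changes were -0.57 for TP63, -0.77 for GRHL3, -0.28 for GATA3, 0.52 for FOXA1, -0.16 for PPARG, 0.87 for ELF3 and 0.77 for KLF5, each with an interval that spanned 0. The interval of PPARG, -1.12 to 0.79, was the narrowest of the 7, and that of TP63, -1.83 to 0.68, the widest.

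The change from native to graft was then compared between the scaffold arms and the Entero arm. This asks whether graft and native bladder differ by the same amount in both kinds of graft. In the Entero arm the change is a difference between ileum and bladder, and not an effect on bladder tissue. TP63, GRHL3, GATA3 and FOXA1 differed, and the other 3 did not pass. The difference of log2 fold changes, scaffold minus Entero, was 9.54 for TP63 (SE 1.44, adjusted p = 0.000135), 4.03 for GRHL3 (SE 0.85, adjusted p = 0.00290), 4.36 for GATA3 (SE 0.91, adjusted p = 0.00290) and 3.60 for FOXA1 (SE 0.94, adjusted p = 0.0172), all in edgeR. So 4 of 7 were called where 7.38% of all genes were. For PPARG the difference was 1.55 (interval -0.06 to 3.16, adjusted p = 0.259 in edgeR), for ELF3 1.28 (interval -0.57 to 3.12) and for KLF5 0.04 (interval -1.56 to 1.64). PPARG passed without the 5 libraries lowest in epithelium (1.80, adjusted p = 0.0153 in edgeR), a setting chosen after seeing the data. With the animal as a block 2 of the 7 were called, where 794 of 17177 genes were. GATA3 (4.30, adjusted p = 0.0508) and FOXA1 (3.31, adjusted p = 0.137) were lost there in edgeR.

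Between the scaffold arms, edgeR called 0% of genes for the difference of these changes (677 at an unadjusted p under 0.05, 20 in DESeq2). None of the 7 factors had an unadjusted p under 0.05 there, and the differences of PRS minus SIS ran from -2.11 for TP63 to -0.21 for ELF3. The interval for TP63 was -4.64 to 0.41.

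Within animals, the graft was set against the native bladder as a difference of log2(CPM + 1). In the Entero arm TP63, GRHL3, GATA3 and PPARG were lower in the graft of 5 of 5 animals and FOXA1 in 4 of 5. KLF5 was higher in 4 of 5 and ELF3 in 3 of 5. The Entero differences of TP63 ran from -6.23 to -0.59 with a median of -5.01, and the smallest belonged to animal 4, whose native library was low in epithelium. In the SIS arm TP63 was higher in 4 of 5 animals, and in the PRS arm it was lower in 4 of 4, with differences of -3.15 to -0.47. ELF3 was higher in the graft in 7 of the 9 scaffold animals.

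The same differences less the animal's own difference in the epithelial mean describe each factor against those 10 genes. EPCAM, ST14 and PRSS8 among them rose in the ileum. In the Entero arm the values therefore need not equal a difference per amount of epithelium. The limit holds in the PRS arm too, where the 10 genes moved unevenly without passing. From native to regenerated tissue there, EPCAM went from 148 to 535 CPM, ST14 from 153 to 291 and PRSS8 from 36.4 to 86.1. ESRP2, also 1 of the 10, went from 87.6 to 62.7 CPM. In the Entero arm all factors other than KLF5 were then lower in 5 of 5 animals, with medians from -6.13 for TP63 to -0.70 for ELF3. KLF5 was lower in 3 and higher in 2. In the 9 scaffold animals GRHL3, GATA3 and PPARG were lower in 8, TP63 and FOXA1 in 7, and ELF3 was higher in 8. The sizes were small for FOXA1, -0.38 to 0.63, and large for GRHL3, -3.62 to 0.19, and TP63, -3.29 to 0.78. Animals 3 and 4 of the PRS arm were among those with low TP63 and GRHL3 in the graft.

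**Figure D3:**
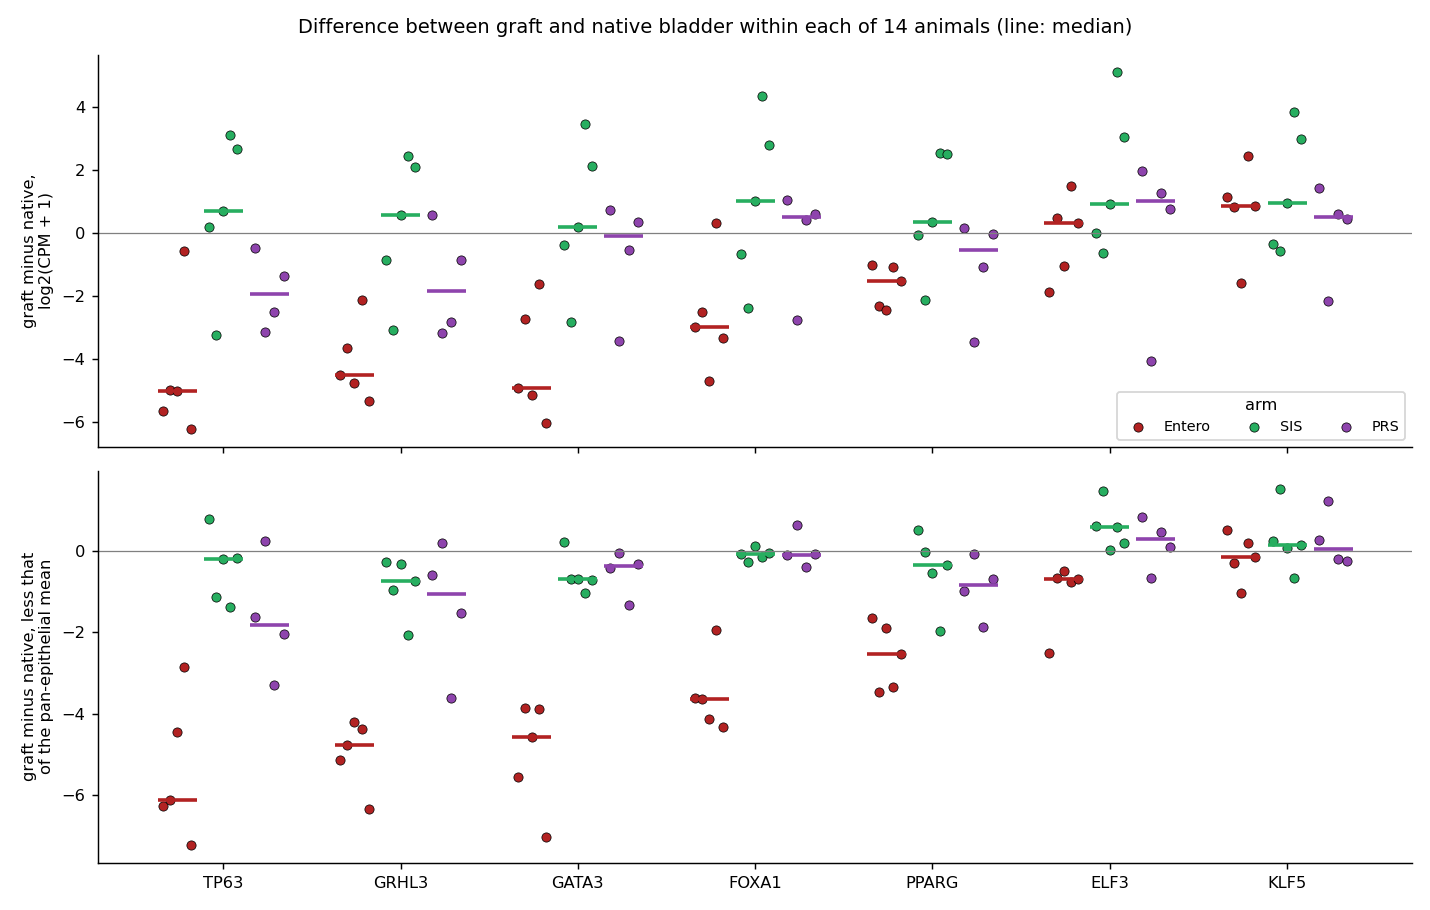
Graft minus native within each of the 14 animals for each factor, in log2(CPM + 1) units (upper panel) and less the animal's difference in the epithelial mean (lower panel); points are animals and short lines are arm medians. In the lower panel the Entero values of TP63, GRHL3, GATA3, FOXA1 and PPARG all lie below 0, and the FOXA1 values of the scaffold animals lie between -0.38 and 0.63.

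Because the epithelial mean varied between libraries, it was also entered as a covariate in the edgeR model. All 7 factors had a positive slope on it that passed the test, from 0.70 for GRHL3 to 1.07 for FOXA1 in log2 units per unit of the mean, where 14.6% of all genes had such a slope. The intervals were narrow for FOXA1, 0.90 to 1.23, and KLF5, 0.67 to 1.00, and widest for TP63, 0.39 to 1.27. The covariate is itself made of epithelial genes, 3 of which rose in the ileum (EPCAM, ST14 and PRSS8), so at equal values the ileum and the bladder need not hold the same amount of epithelium. The same limit holds between PRS regenerated and PRS native tissue, as given above.

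In that model the Entero comparison called 6 of 7 factors lower in the ileum, where 18.9% of all genes were called. PPARG changed by -2.33 (SE 0.32, adjusted p = 7.96e-06) and ELF3 by -0.95 (SE 0.32, adjusted p = 0.0397), both in edgeR. KLF5 stood at 0.11 with an interval of -0.46 to 0.67 (adjusted p = 0.847 in edgeR). FOXA1 changed by -3.59 with an SE of 0.29, against 0.78 without the covariate. The difference between scaffold and Entero arms passed for 6 of 7 factors (11.7% of all genes), PPARG at 1.72 (adjusted p = 0.00315) and ELF3 at 1.42 (adjusted p = 0.0180 in edgeR) among them. KLF5 gave 0.26 with an interval of -0.43 to 0.96.

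With the covariate, regenerated against native tissue in the averaged scaffold arms still gave 0% of genes called and 0 of the 7 factors. The nearest were PPARG at -0.61 (interval -1.09 to -0.14, unadjusted p = 0.0135, adjusted p = 0.759) and GRHL3 at -0.88 (interval -1.57 to -0.19, unadjusted p = 0.0144, adjusted p = 0.779, both in edgeR). FOXA1 gave -0.08 with the narrowest interval, -0.49 to 0.32. In that comparison 915 genes had an unadjusted p under 0.05. The PRS arm alone also gave 0% of genes and 0 of the 7 (830 genes at an unadjusted p under 0.05), with PPARG at -1.001 (interval -1.70 to -0.30, unadjusted p = 0.00696, adjusted p = 0.996 in edgeR) and GRHL3 at -1.37 (interval -2.46 to -0.29). The SIS arm alone gave 0% and 0 of the 7 (706 genes at an unadjusted p under 0.05), with ELF3 at 0.73 (interval 0.07 to 1.39, unadjusted p = 0.0307, adjusted p = 1 in edgeR).

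**Figure D4:**
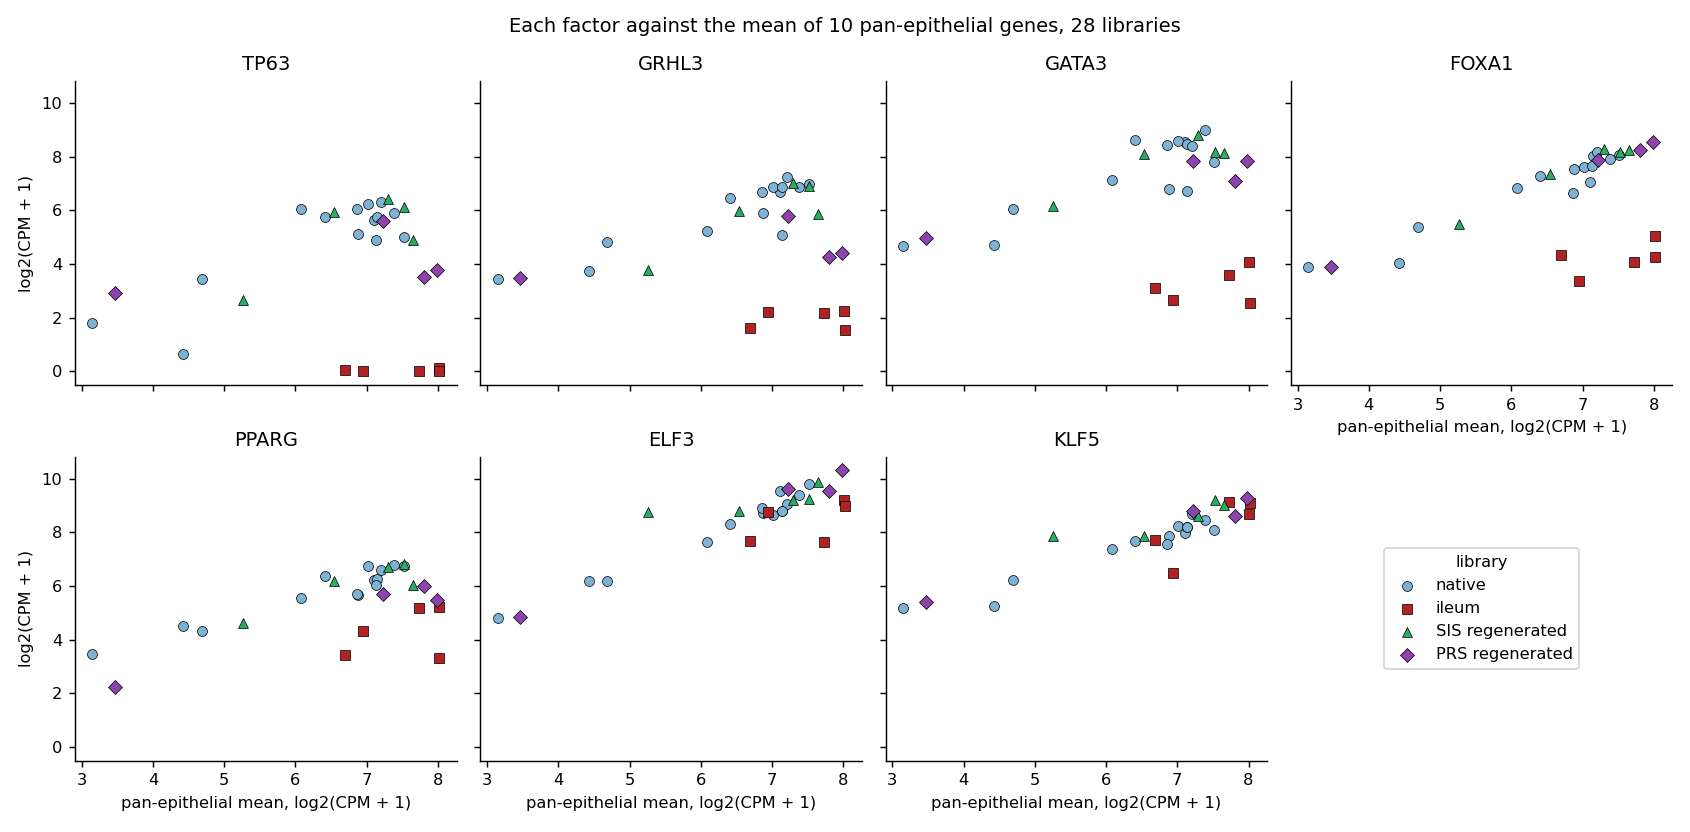
Each factor, as log2(CPM + 1), against the mean log2(CPM + 1) of 10 pan-epithelial genes in the 28 libraries, with native bladder as circles, ileum as squares, SIS regenerated as triangles and PRS regenerated as diamonds. FOXA1 and KLF5 of native and regenerated libraries lie along 1 line, the ileum lies below it for FOXA1 and near it for KLF5, and 2 PRS libraries near 8 on the horizontal axis lie low for TP63 and GRHL3.

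Set directly against the ileum, SIS regenerated tissue carried more TP63, GRHL3, GATA3, FOXA1 and PPARG (5 of 7, where 21.1% of genes were called), and PRS regenerated tissue more of the first 4 (4 of 7, where 13.9% were called). These comparisons share the ileum libraries with that of the Entero arm, so the values are given side by side and are not independent. TP63 was higher by a log2 fold change of 10.51 in SIS (SE 1.36, adjusted p = 6.6e-06 in edgeR) and 9.14 in PRS (SE 1.34, adjusted p = 4.61e-05 in edgeR). Its reads were 7859 in SIS regenerated and 2191 in PRS regenerated tissue, against 3 reads in the ileum. Relative to unscaled total counts, the ratios to the ileum were 2382 (counting interval 815 to 11553) and 840 (287 to 4079).

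GRHL3 was higher than in the ileum by a log2 fold change of 4.68 (SE 0.75) in SIS and 3.10 (SE 0.72) in PRS, GATA3 by 4.94 (SE 0.82) and 4.13 (SE 0.80), and FOXA1 by 3.56 (SE 0.80) and 3.61 (SE 0.82). TP63, GRHL3, GATA3 and FOXA1 of SIS regenerated tissue did not overlap with the ileum (12.6% of genes did not). Of PRS regenerated tissue TP63, GRHL3 and GATA3 did not overlap with it (11.2% of genes did not), and FOXA1 overlapped through PRS regenerated 2 at 13.98 CPM. PPARG was higher in SIS by 1.77 in log2 units (SE 0.64, adjusted p = 0.0484 in edgeR). That call lay close to the threshold. It was lost on leaving out ileum 2, 3 or 4 or SIS regenerated 1, 3, 4 or 5 (adjusted p = 0.0590 to 0.108 in edgeR). Over all 10 single omissions the log2 value stayed at 1.58 to 2.03. The call was also lost in edgeR under relative log expression scaling (adjusted p = 0.0583) or with no filter (adjusted p = 0.0630).

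In PRS, PPARG gave 0.89 in log2 units against the ileum (interval -0.46 to 2.24, adjusted p = 0.401 in edgeR). ELF3 and KLF5 did not pass in either scaffold: ELF3 gave 0.65 and 0.88, and KLF5 0.11 and 0.04. Without the 5 libraries lowest in epithelium, a setting chosen after seeing the data, 2 calls were gained between PRS and ileum. They were PPARG (1.28, adjusted p = 0.0312) and ELF3 (1.29, adjusted p = 0.0331), both in edgeR. With the epithelial covariate 6 of 7 factors were called between SIS and ileum (25.6% of genes) and 5 of 7 between PRS and ileum (17.5% of genes). ELF3 was then higher in SIS by 1.40 in log2 units (adjusted p = 0.00256 in edgeR), and KLF5 was called in neither.

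PRS and SIS regenerated tissue were compared with each other, and 0% of genes were called (763 at an unadjusted p under 0.05, 18 in DESeq2; 0 of the 7 in either). Without the covariate GRHL3 had the lowest p of the 7, with a log2 fold change of PRS against SIS of -1.58 (interval -3.04 to -0.12, unadjusted p = 0.0348, adjusted p = 1 in edgeR). TP63 gave -1.37 (interval -3.20 to 0.46) and PPARG -0.89 (interval -2.27 to 0.49). With the covariate 0% of genes and 0 of the 7 were called (933 genes at an unadjusted p under 0.05). PPARG then had the lowest p, at -1.11 (interval -1.78 to -0.43, unadjusted p = 0.00239, adjusted p = 0.912 in edgeR), and GRHL3 gave -1.15 (interval -2.20 to -0.10).

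The native bladders were compared as the background of these changes. Between the averaged scaffold arms and the Entero arm 0.0466% of genes were called (8 of 17177) and 0 of the 7 factors, and between PRS and SIS natives 0% of genes were called (1195 at an unadjusted p under 0.05, 115 in DESeq2) and 0 of the 7. The log2 differences of the 7 ran from -0.51 to 0.28 in the first comparison and from -0.23 to 0.75 in the second. Genes of intestinal epithelium did differ in the first. Of 12 tested, 2 were called lower in the scaffold natives, with a median log2 difference of -3.00. An unadjusted p under 0.05 in edgeR was found for 7 of them.

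Relatives of the 7 factors from the same gene families were read as a list of 25, of which 24 were tested. In the ileum 5 rose and 4 fell, where 15% of all genes were called. The median log2 fold change was -0.13 against -0.03 over all genes. The families split. GATA2, the relative of GATA3 known from blood progenitors and also present in bladder, fell with it, from 239 ± 130 to 10.8 ± 7.19 CPM (log2 fold change -4.46, SE 0.70, adjusted p = 6.79e-05 in edgeR), whereas GATA4, a factor of proximal gut and heart, rose from 3 reads in the native group to 769 (adjusted p = 0.00362 in edgeR).

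FOXA3, a relative of FOXA1 known from liver and gut, rose from 0.278 ± 0.347 to 47.7 ± 24.5 CPM (log2 fold change 7.38, adjusted p = 0.00601 in edgeR), and FOXA2 gave 0.45 (adjusted p = 0.861). PPARA, a relative of PPARG that governs fatty acid oxidation, rose from 3.05 ± 0.835 to 21.5 ± 14.1 CPM (log2 fold change 2.81, adjusted p = 5.96e-05 in edgeR). ELF5, a relative of ELF3 in stratified and glandular epithelia, fell from 6.44 ± 3.76 to 0.150 ± 0.284 CPM (log2 fold change -5.39, adjusted p = 0.00277 in edgeR). Of the KLF family, KLF4, a factor of differentiated gut and skin epithelium, rose by 1.76 (adjusted p = 0.0181) and KLF3 by 0.83 (adjusted p = 0.0485) in edgeR. GRHL1, a relative of GRHL3 (-3.64, adjusted p = 0.0127), and KLF2 (-1.31, adjusted p = 0.0220) fell in edgeR as well; they are named after their values were seen, as the remaining members of the 9 called. In the averaged scaffold arms 0 of the 24 passed.

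Other epithelial transcription factors, a list of 19 with 18 tested, gave 9 falls and 0 rises in the ileum (median -2.02). Over all genes 15% were called there. TRIM29, a regulator found in basal cells, fell from 178 ± 121 to 0.648 ± 0.578 CPM (log2 fold change -8.10, adjusted p = 7.65e-06 in edgeR). HOXA13, which specifies the hindgut and the urogenital sinus, fell from 90.9 ± 26.6 to 0.140 ± 0.192 CPM (log2 fold change -9.31, adjusted p = 2.17e-09 in edgeR). RARG, a retinoic acid receptor, changed by -2.71 and BHLHE41 by -2.63, both called. In regenerated tissue HOXA13 stood at 63.6 ± 27.3 CPM in SIS and 66.7 ± 21.3 CPM in PRS, against 101 ± 12.1 and 70.6 ± 37.4 CPM in their native bladders.

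Intestinal transcription factors went the other way. Of 16 tested, 11 rose in the ileum, 0 fell and 5 did not pass, where 15% of all genes were called. Their median was 6.53. CDX2, which sets intestinal identity, stood at 139 ± 38.3 CPM in the ileum and 0.209 ± 0.187 CPM in native bladder, and HNF4A, a nuclear receptor of enterocytes, at 77.6 ± 59.5 and 0.261 ± 0.411 CPM. Regenerated tissue held 12 reads of CDX2 in the SIS group and 1 in the PRS group, and 0 of the 16 factors passed in either scaffold arm. SOX9, a factor of crypt and progenitor cells in many epithelia, gave 3.30 in SIS and 2.38 in PRS without passing, at 47.3 ± 79.2 and 99.0 ± 77.6 CPM in regenerated tissue.

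**Figure D5:**
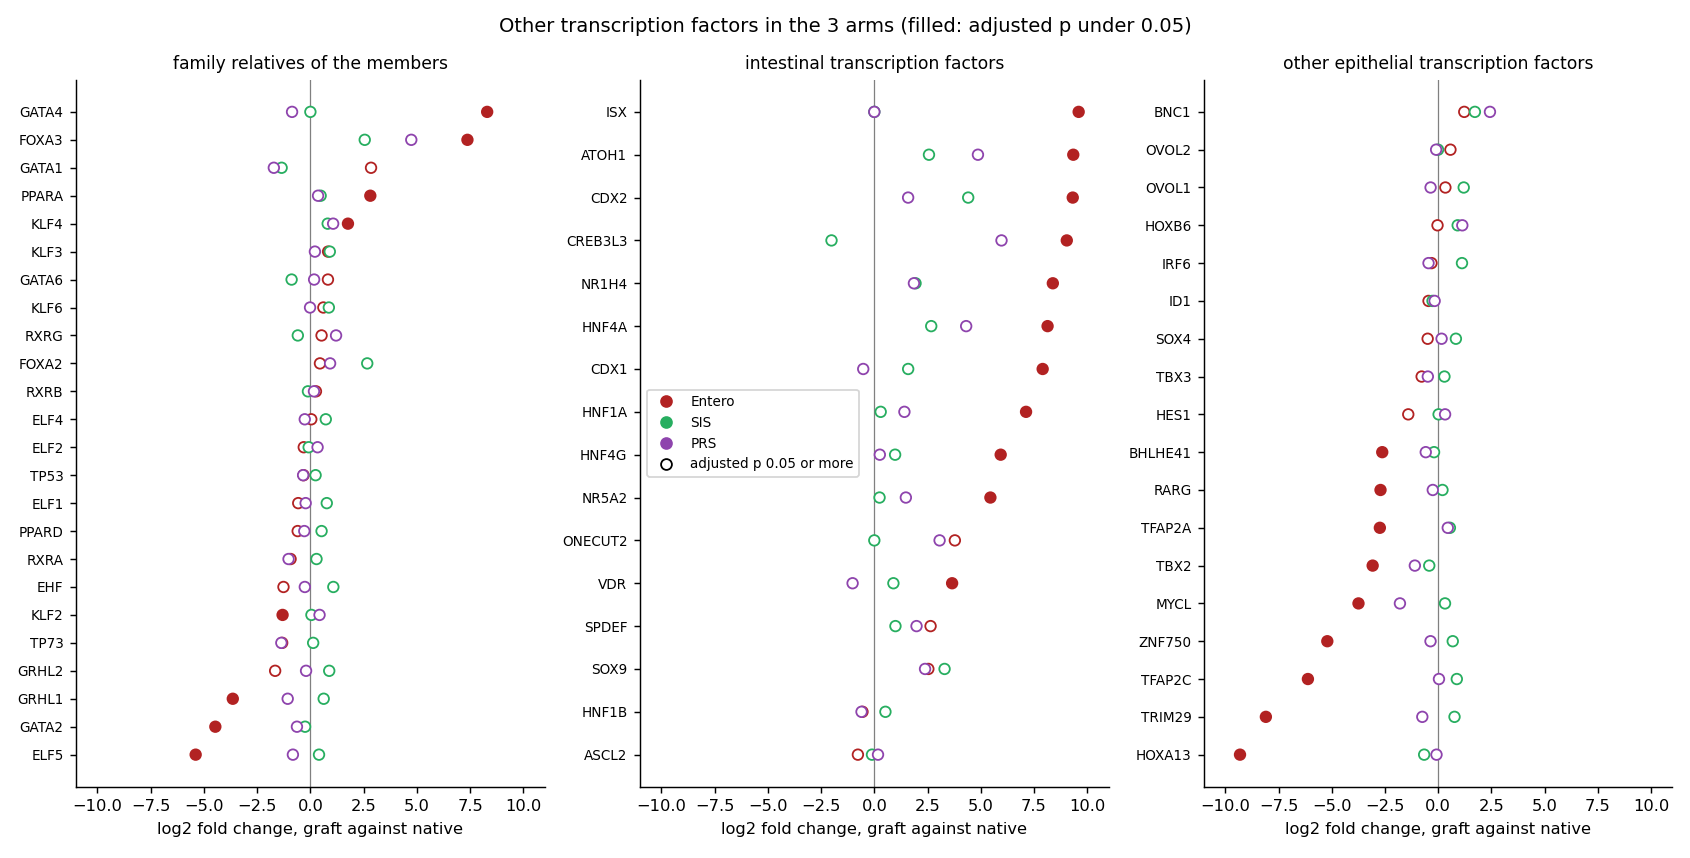
Log2 fold change of graft against native bladder in edgeR for the relatives of the 7 factors, the intestinal factors and the other epithelial factors, with the Entero arm in red, SIS in green and PRS in purple; filled points have an adjusted p under 0.05. Filled points occur only in the Entero arm: 5 higher and 4 lower among 24 relatives, 11 higher among 16 intestinal factors and 9 lower among 18 other epithelial factors.

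The lists of layer markers were read beside the factors, with 15% of all genes called in the ileum as background. Of 17 luminal urothelial genes 12 fell and 1 rose in the ileum (median -5.56), the riser being KRT20, a keratin of both umbrella cells and intestinal epithelium (7.45, adjusted p = 8.14e-05 in edgeR). Of 21 basal epithelial genes 6 fell and 0 rose (median -0.98). Among them UPK1A (-8.27) and UPK2 (-8.58), uroplakins of umbrella cells, on the luminal list and DSG3 (-6.92) and DSC3 (-6.77) on the basal list fell, the last 2 as desmosomal cadherins of stratified epithelium. SHH, a secreted signal that basal urothelial cells are known to make, was placed on the luminal list and is among its falls (-8.88). In the SIS and PRS arms 0 members of either list passed. The median of the basal list was 0.86 in SIS and 0.13 in PRS, and that of the luminal list 0.11 and -0.59.

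For each factor the genes most like it over the 14 native libraries, by Pearson's r of log2(CPM + 1), were then taken. The epithelial mean ran from 3.15 to 7.52 over these libraries. Its part in r was not tested, and r is given as a description. FOXA1 and KLF5 were most like each other among all genes with a symbol (r = 0.985), while FOXA1 fell in the ileum and KLF5 did not pass. TP63 was most like TMEM30B (r = 0.971) and DSP, desmoplakin (r = 0.967), GRHL3 most like CAPN5 (r = 0.988) and NIPAL1 (r = 0.987), and GATA3 most like ZNF750, an epidermal differentiation factor (r = 0.977), and DNAH3 (r = 0.963). PPARG was most like OVOL2 (r = 0.976) and the splicing regulator ESRP1 (r = 0.973), ELF3 most like the polarity gene LLGL2 (r = 0.987) and EPS8L2 (r = 0.983), and the second likeness of both FOXA1 and KLF5 was MAP7 (r = 0.984).

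Likeness in native bladder did not carry over to the ileum for every gene. DSP gave a log2 fold change of 0.06 in the ileum (adjusted p = 0.972 in edgeR) where TP63 gave -10.12, whereas ZNF750 fell with GATA3, by -5.21. Among the 7, the 21 pairs had r of 0.813 to 0.985 over the 14 native libraries and of 0.384 to 0.974 over the 9 regenerated ones.

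Differences between factors within a library were read last. ELF3 minus TP63 in log2(CPM + 1) was 1.56 to 5.54 in the 14 native libraries and 7.62 to 9.06 in the ileum, where TP63 was at or near 0. In regenerated tissue it was 1.94 to 4.98 in 6 of 9 libraries and 6.10, 6.52 and 6.03 in SIS regenerated 2 and PRS regenerated 3 and 4, above every native library. KLF5 minus GATA3 was -0.97 to 1.45 in native bladder and 3.80 to 6.55 in the ileum, and -0.26 to 1.70 in regenerated tissue.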

How the data were processed

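The authors deposited a table of read counts per gene for 28 libraries, not normalised. The submitters' processing notes list featureCounts 1.5.0-p3, StringTie 1.3.3b and HISAT2 2.0.5; per the labels' protocols, poly-A RNA was made into directional libraries and sequenced in pairs. The sources used here do not give the build, annotation or strand setting. Coordinates are therefore left out, and overlapping genes cannot be separated. Of 27533 genes, 6280 had no symbol. The members and gene lists were chosen with earlier results of these data known.

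Counts were tested with edgeR 4.0.16 (limma 3.58.1, R 4.3.3): filterByExpr (minimum count 10; 17177 genes), TMM scaling, 1 robust quasi-likelihood model of the 6 groups, contrasts, and Benjamini-Hochberg adjustment over all genes tested (threshold 0.05). The SE was taken as the size of the log2 fold change divided by the root of F, and intervals are at 95%. Levels are CPM on TMM-scaled totals. TPM used the deposited gene lengths. The model was tested on simulated data. The 10 genes of the epithelial mean are those of 13 listed that had a unique symbol among all genes and passed the filter. The other lists were cut in the same way, so a listed gene left untested need not be low.

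Named were the 7 factors, for each the 2 genes with the highest r over the 14 native libraries, up to 4 genes with the smallest p of each list in the ileum and averaged scaffold comparisons, and a set of markers; some were left out for room. Genes outside the rule are said to be so where they appear.

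Alternatives were other scalings, filters, DESeq2 1.42.0, the animal as a block, the compared groups alone, the epithelial covariate and leaving out each library. The animal codes in the labels pair native and graft libraries. The codes also hold an F or an M, whose meaning the sources used here do not give. M stands in the codes of Entero and SIS animals 4 and 5 and of PRS animals 3 and 4, and F in all others. Its part in the values was not tested. Deviations of the 14 pairs from their group means correlated with r of -0.299 to 0.707 (median 0.133), over 0.1 in 8 of 14 pairs.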

Additional observations from a re-analysis of the deposited data

Results flagged for a closer look

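Single libraries far from the rest of their group were looked for in the 7 factors and 6 groups, 42 groups of values in all on the log2(CPM + 1) scale, where chance marks about 1 group in 20. The distance was judged by Dixon's ratio of gap to range. Entero native 4 was low in TP63 (0.576 CPM, others 31.3 to 74.2), FOXA1 (15.3 CPM, others 132 to 267) and KLF5 (37.3 CPM, others 233 to 303). PRS regenerated 2 was low in FOXA1 (13.98 CPM, others 232 to 377), PPARG (3.71 CPM, others 43.7 to 63.3), ELF3 (27.9 CPM, others 747 to 1268) and KLF5 (40.9 CPM, others 392 to 619). SIS regenerated 2 was low in GATA3 (71.3 CPM, others 276 to 452). PRS native 4 was low in TP63 (28.6 CPM, others 66.1 to 78.0); its epithelial mean was 7.14, within the range of its group.

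The change from native to graft differed between the scaffold arms and the Entero arm in 4 factors. In the edgeR contrast the difference in log2 fold change was 9.54 for TP63, 4.03 for GRHL3, 4.36 for GATA3 and 3.60 for FOXA1. With the animal as a block the calls of GATA3 and FOXA1 were lost, as given above.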

How the results depend on the processing

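Of 1174 values of single factors under the alternatives, 1102 kept their direction and side of the threshold. Of the others, 12 lost a call, 13 gained one and 47 turned direction, 0 of them a called value. The 1174 hold no values between native groups or for the PRS minus SIS change. For PRS against SIS regenerated tissue they hold TP63, GRHL3 and PPARG only. Turns outside the 1174 are listed below for the epithelial covariate only. TP63 and GRHL3 kept every call in the Entero comparison and in the contrast of scaffold and Entero arms under all settings run.

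DESeq2 called 69 genes in the SIS arm, 30 in PRS, 64 in both averaged, 2035 for scaffold minus Entero, 20 for PRS minus SIS, 18 between the regenerated tissues, 27 for scaffold against Entero natives and 115 for PRS against SIS natives. The animal as replicate block gave 1 gene in the averaged scaffold arms and 794 genes, 2 of the 7 factors, for scaffold minus Entero; it changed no other call of a factor than those given above. The epithelial covariate gave 2007 genes for scaffold minus Entero. The groups alone gave 1027 genes for PRS against ileum. For scaffold against Entero natives, no filter gave 4 genes, the covariate 5, the groups alone 0, and leaving out the 5 libraries lowest in epithelium 0. Leaving out single libraries gave 0 to 3 genes in the PRS arm (3 without PRS native 4) and 2 to 8 for scaffold against Entero natives. The cause of these moves was not tested.

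Turned log2 values among the 1174, none called, were as follows. In the SIS arm GATA3 was -0.015 with upper quartile scaling. With the covariate GRHL3 was -0.39, GATA3 -0.42, FOXA1 -0.12 and PPARG -0.23 there. Without the 5 libraries GRHL3 was -0.22, GATA3 -0.40 and PPARG -0.033. FOXA1 in PRS was -0.059 with the replicate block and -0.046 with the covariate, and -0.084 with the covariate in the averaged arms. KLF5 for scaffold minus Entero was -0.0072 with relative log expression scaling, -0.0073 in DESeq2 and -0.053 with the replicate block. KLF5 for PRS against ileum was -0.0018 with relative log expression scaling and -0.0019 in DESeq2. Leaving out single libraries gave -0.18 to 0.38 for GRHL3 and -0.28 to 0.36 for GATA3 in SIS, and -0.31 to 0.030 for PPARG in the averaged arms. KLF5 ran from -0.21 to 0.31 for scaffold minus Entero, -0.14 to 0.31 for SIS against ileum and -0.32 to 0.42 for PRS against ileum. The covariate also turned values outside the 1174. For PRS against SIS regenerated tissue ELF3 went from 0.23 to -0.48 and FOXA1 from 0.05 to -0.16. Between PRS and SIS natives GRHL3 went from 0.18 to -0.17 and FOXA1 from 0.30 to -0.24. PPARG went from 0.11 to -0.33 and KLF5 from 0.46 to -0.04 there. For scaffold against Entero natives GRHL3 went from -0.14 to 0.08 and FOXA1 from -0.01 to 0.36. FOXA1 for PRS minus SIS changes went from -0.24 to 0.08.

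Leaving out 1 of 4 or 5 libraries keeps at least 3 in a group. Depth limits TP63 in the ileum, where 3 reads in all carry the ratio.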
